A study of Mus musculus with 2 samples.

Results

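Ifit1, Ifit2, Ifit3, Ifit3b, Isg15, Isg20, Usp18, Rsad2 and Cmpk2 are 9 of the 31053 genes counted in 2 single-cell libraries of mouse tumour immune cells. They were chosen by symbol, as the main Ifit genes and a core of other genes that type I interferon switches on, and all 9 symbols were found in the files. One library carries the label Ythdf2 cKO and the other WT. Ythdf2 is a protein that binds m6A-marked RNA, and cKO stands for its conditional knockout. Both hold CD45+ cells sorted from tumours of C57BL/6 mice and counted with 10x Genomics 5′ chemistry. The sources used here do not give the promoter that drives the deletion, the deleted exons, the tumour line, the number of animals pooled, or their age and sex. The study's title places its question in tumour-associated macrophages.

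Type I interferons bind the receptor chains Ifnar1 and Ifnar2, whose kinases Jak1 and Tyk2 pass the signal on. It ends in transcription factors that bind interferon-stimulated response elements and switch on antiviral genes. The Ifit proteins bind foreign or incompletely capped RNA. Isg15 is a ubiquitin-like modifier, Usp18 removes it from proteins and also restrains the receptor, and Isg20 is an RNA exonuclease. Rsad2, or viperin, makes a chain-terminating nucleotide, and Cmpk2, encoded beside it, is a mitochondrial nucleotide kinase. In tumours these genes are read as a sign of interferon exposure in myeloid cells and lymphocytes.

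There is 1 library per label, so no difference below has a replicate check, and none has a p-value. Levels are UMIs summed over the cells of a class and scaled to counts per 1000000 UMIs of that class (CPM), and brackets give 95% exact intervals that cover counting error only. The library labelled cKO held 11398 barcodes and 121321782 UMIs, against 14404 barcodes and 128952491 UMIs in the WT library. After filtering, 9086 cells of the library labelled cKO had a median of 8003.5 UMIs, and 10992 WT cells had a median of 5130.5. The libraries shared 43 cell barcodes, 23 of them among cells that passed the filters in both. Cells were sorted into 16 classes by marker genes, and 1181 cells of the library labelled cKO and 1529 WT cells fell in none. A class was compared between libraries where each held at least 100 of its cells, which left 9 classes.

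Ythdf2 itself went against the label. In macrophage-like cells Ythdf2 was counted at 423 CPM in the library labelled cKO, against 81.0 CPM in the WT library, and in monocyte-like cells at 389 CPM against 53.1 CPM. In CD8 T-like cells it was at 69.2 CPM in the library labelled cKO and 53.9 CPM in the WT library, in regulatory T-like cells at 109 CPM and 50.6 CPM, and in the T-like cells put in no subset at 115 CPM and 57.8 CPM. The ratio of Ythdf2 was 1.09 in NK-like and B-like cells, 1.24 in CD4 T-like cells and 1.28 in gamma delta T-like cells. Each of these had an interval that holds 1. Lyz2 was lower in the library labelled cKO in every class compared. In macrophage-like cells it was at 1993 CPM there and 4202 CPM in the WT library, and in monocyte-like cells at 4425 CPM and 9701 CPM. The cause of either difference was not tested. Since the deleted exons are not given, a 5′ count of Ythdf2 may lie outside the deleted part. This count neither checks nor settles the labels. The direction of every difference below rests on the library label as deposited.

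Macrophage-like and monocyte-like cells each expressed all 9 genes, and all 9 were more than 1.5-fold higher in the library labelled cKO. In monocyte-like cells the summed level of the 9 genes was 2273 CPM in the library labelled cKO, over 2275 cells, against 836 CPM in the WT library, over 1655 cells. That is a ratio of 2.72 (2.66 to 2.78). In macrophage-like cells the summed level was 1295 CPM in the library labelled cKO, over 400 cells, against 539 CPM in the WT library, over 2555 cells, a ratio of 2.40 (2.35 to 2.45). Among all genes that reached 10 CPM in a library, 7.38% were past the same fold upward in macrophage-like cells and 3.89% in monocyte-like cells, while 6.3% and 1.77% were past it downward. The median log2 ratio of the 9 genes was 1.47 in both classes, beside a median of -0.04 over all such genes in macrophage-like cells and -0.09 in monocyte-like cells.

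**Figure D1:**
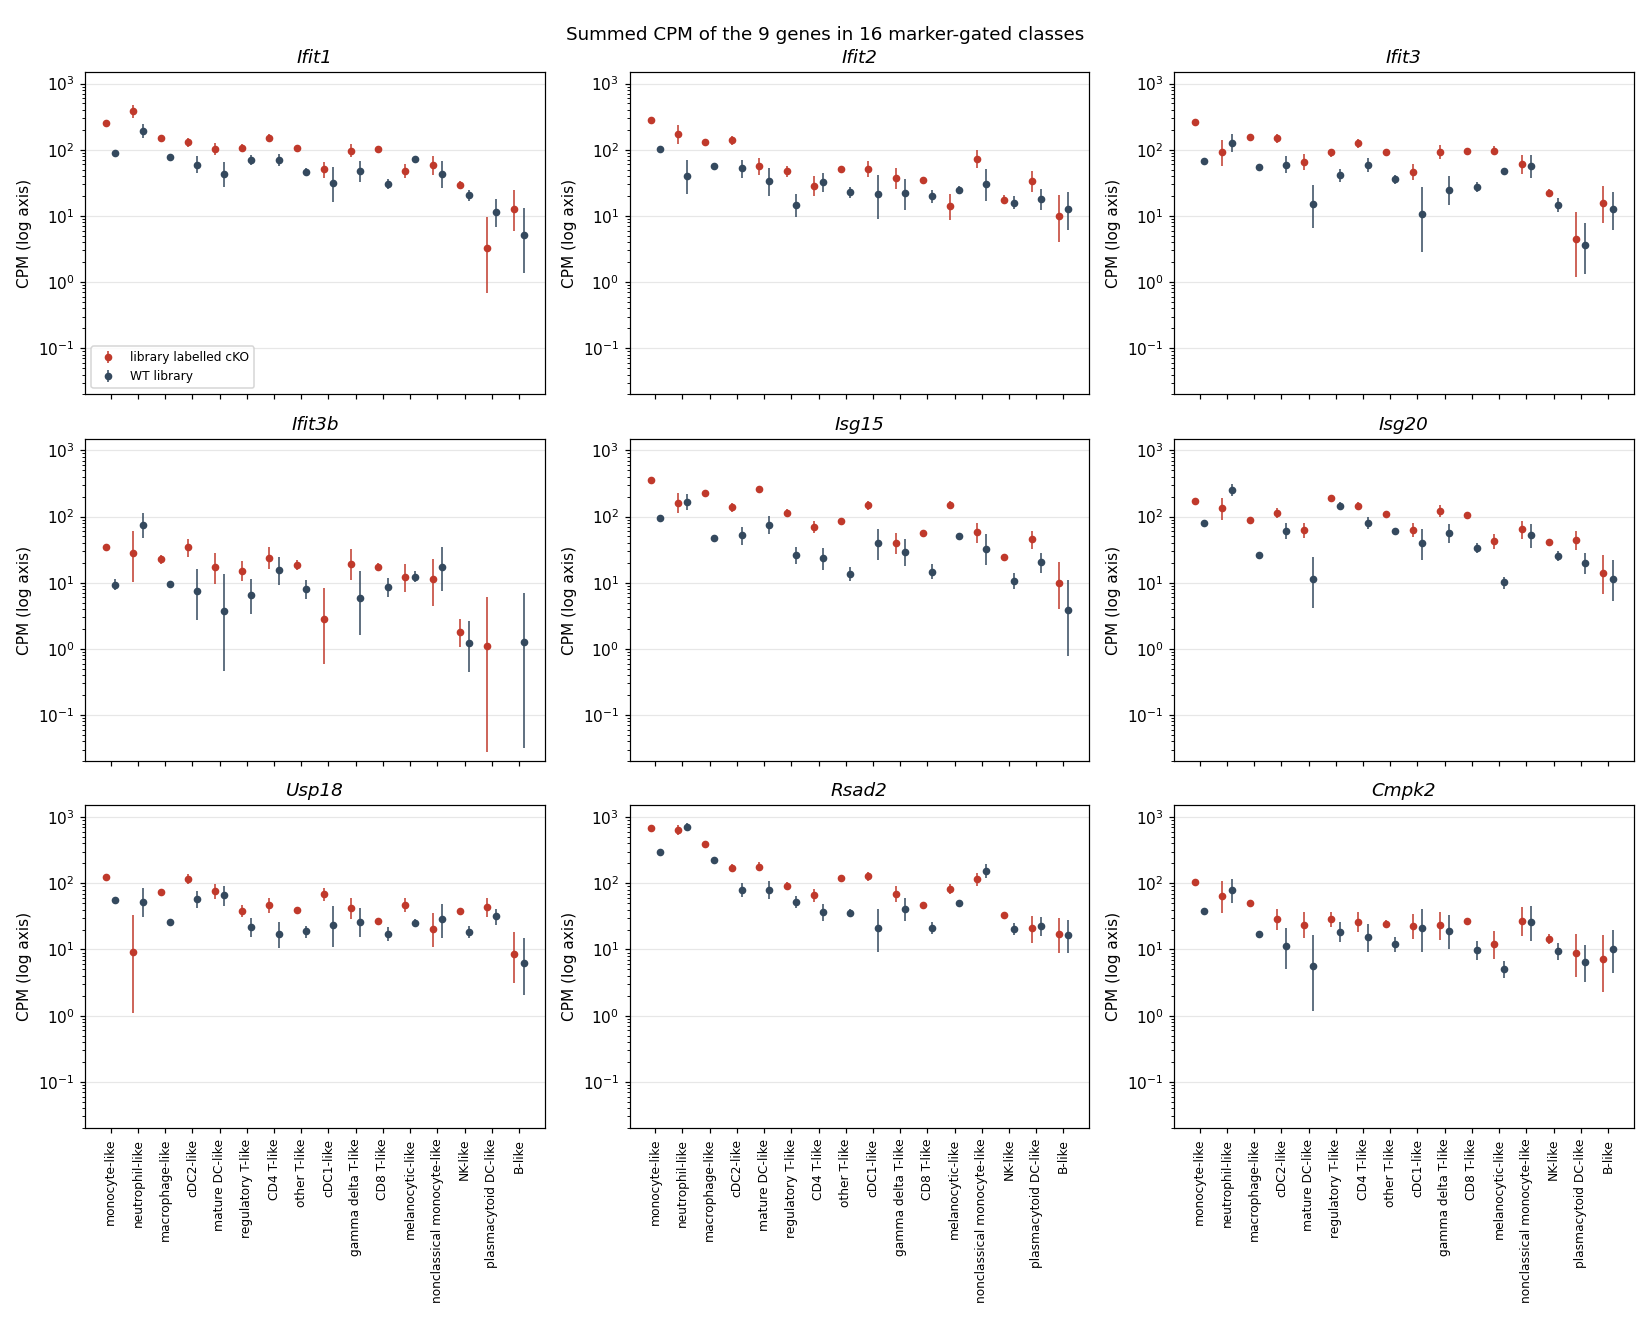
Summed level in CPM (log axis) of each of the 9 genes in 16 marker-gated classes, with the library labelled cKO in red on the left of each pair and the WT library in dark blue on the right. Bars are exact 95% counting intervals, and values of 0 are not drawn. Points of the library labelled cKO lie above their WT partners in macrophage-like, monocyte-like and CD8 T-like cells for all 9 genes, and the bars of the pair overlap widely in B-like cells.

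The Ifit genes lie in 1 cluster on chromosome 19, spanning 99316 bases from the start of Ifit2 to the end of Ifit1 (GRCm38, GENCODE vM21 annotation). Ifit2 occupies 34550694 to 34576419, Ifit3 34583531 to 34588731, Ifit3b 34607970 to 34613401 and Ifit1 34640871 to 34650009, all on the plus strand. Their upstream stretches are shown because these genes moved together and because the response element can be seen in them. The element was searched on both strands as GAAA, any 2 bases, then GAAA, which reads TTTC, 2 bases, TTTC on the opposite strand, in windows of 250 bases before to 50 after each gene start. Matches are in capitals, from RefSeq promoters on GRCm38.p6, and overlapping matches were counted separately.
Ifit1, chr19:34640771-34640827, plus strand: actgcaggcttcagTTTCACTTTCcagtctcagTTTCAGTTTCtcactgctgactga
Ifit3, chr19:34583359-34583430, plus strand: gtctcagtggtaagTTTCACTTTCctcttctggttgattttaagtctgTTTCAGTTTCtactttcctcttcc
Ifit3b, chr19:34607755-34607826, plus strand: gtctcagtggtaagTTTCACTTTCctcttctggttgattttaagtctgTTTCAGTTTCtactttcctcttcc
The printed stretches of Ifit3 and Ifit3b are the same letters, and their upstream windows were identical at 96.88% of 224 aligned columns. Ifit1, Ifit3 and Ifit3b each held 2 matches, and neither window of Ifit2 held one.

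The Isg15 and Rsad2 stretches, on chromosomes 4 and 12, held the same letters in a different arrangement. Isg15 lies at 156199424 to 156200818 and Rsad2 at 26442746 to 26456452, both on the minus strand, and 12751 bases separate Rsad2 from Cmpk2, which lies on the plus strand at 26469204 to 26479837.
Isg15, chr4:156200861-156200910, minus strand: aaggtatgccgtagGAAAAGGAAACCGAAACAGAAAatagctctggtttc
Rsad2, chr12:26456549-26456586, minus strand: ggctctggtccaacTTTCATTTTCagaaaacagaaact
Isg15 held 3 overlapping matches in 1 run and Rsad2 held 1. In all, 5 of the 8 members with a window held a match, against 3.993% of the 27025 genes in the table. Isg20, on chromosome 7, and Cmpk2 held none, and Usp18, on chromosome 6, was not matched to a window. A match is only these letters in the window.

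Ifit1, Ifit2 and Ifit3 differed by 1.97-fold to 3.86-fold in macrophage-like and monocyte-like cells. In monocyte-like cells Ifit1 was at 256 CPM (251 to 262) in the library labelled cKO and 90.6 CPM (85.5 to 96.0) in the WT library. Ifit2 was at 285 CPM (279 to 291) in the library labelled cKO and 103 CPM (97.2 to 108) in the WT library. Ifit3 was at 262 CPM (256 to 268) in the library labelled cKO and 67.9 CPM (63.5 to 72.6) in the WT library, a ratio of 3.86 (3.60 to 4.14). For none of these did the counting intervals of the libraries overlap. In macrophage-like cells the ratios were 1.97 (1.84 to 2.09) for Ifit1, 2.30 (2.14 to 2.46) for Ifit2 and 2.82 (2.64 to 3.01) for Ifit3.

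Ifit3b was at 34.1 CPM in the library labelled cKO and 9.34 CPM in the WT library in monocyte-like cells, and at 22.4 CPM and 9.48 CPM in macrophage-like cells. Ifit3 and Ifit3b are near-identical copies. Their longest reading frames, each 1212 bases, are identical at 99.09% of positions. Of the 100-base words in the whole Ifit3 transcript, 31.65% also occur in that of Ifit3b. The sources used here do not say how reads that fit both were counted, so the split between Ifit3 and Ifit3b is uncertain. Between the members of the family lies Ifit1bl1, a rodent relative of Ifit1. It was at 31.4 CPM in monocyte-like cells from the library labelled cKO, against 7.93 CPM in those of the WT library, and at 20.2 CPM against 3.94 CPM in macrophage-like cells. Ifit1bl2 starts 127 bases from Ifit1 on the opposite strand, with the Ifit1 stretch shown above upstream of both genes. It was nearly silent, at 0.603 CPM in monocyte-like cells from the library labelled cKO and 0.236 CPM in those of the WT library.

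Isg15 had the largest ratio of the 9 genes in macrophage-like cells. Its level there was 228 CPM (218 to 238) in the library labelled cKO and 46.6 CPM (44.7 to 48.6) in the WT library, a ratio of 4.89 (4.59 to 5.19). In monocyte-like cells it was at 358 CPM (351 to 364) in the library labelled cKO and 95.7 CPM (90.4 to 101) in the WT library, a ratio of 3.74 (3.52 to 3.97). Isg15 made up 17.6% of the 9 genes' UMIs in macrophage-like cells from the library labelled cKO, against 8.64% in those of the WT library.

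Usp18, the protease that removes Isg15, had a ratio of 2.84 (2.58 to 3.12) in the macrophage-like class, and one of 2.23 (2.06 to 2.42) in the monocyte-like class. It was at 124 CPM in monocyte-like cells from the library labelled cKO and 55.7 CPM in those of the WT library. Of the 6 genes listed for Isg15 conjugation, Isg15 and Usp18 included, 5 were past 1.5-fold upward in macrophage-like cells and 4 in monocyte-like cells, with none past it downward. Over all genes, 7.38% and 3.89% were past it upward in these classes. Herc6, a ligase for Isg15 in mice, was at 107 CPM in monocyte-like cells from the library labelled cKO and 53.0 CPM in those of the WT library. Ube2l6, the conjugating enzyme, was at 91.3 CPM in the library labelled cKO and 56.7 CPM in the WT library in the same class. Isg20 had a ratio of 3.32 (3.03 to 3.64) in the macrophage-like class, and one of 2.11 (1.98 to 2.26) in the monocyte-like class. It was at 170 CPM in monocyte-like cells from the library labelled cKO and 80.2 CPM in those of the WT library.

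The neighbours Rsad2 and Cmpk2 differed by unlike factors in macrophage-like cells. Rsad2 had the smallest ratio of the 9 genes there, 1.76 (1.69 to 1.83), with 395 CPM in the library labelled cKO and 225 CPM in the WT library. Cmpk2 had a ratio of 2.90 (2.58 to 3.26), with 50.5 CPM in the library labelled cKO and 17.4 CPM in the WT library. These intervals do not overlap. In monocyte-like cells Rsad2 was at 678 CPM (669 to 687) in the library labelled cKO and 295 CPM (285 to 304) in the WT library. Cmpk2 was at 105 CPM (102 to 109) in the library labelled cKO and 38.7 CPM (35.4 to 42.3) in the WT library. The ratios there were closer, at 2.30 (2.22 to 2.38) for Rsad2 and 2.73 (2.48 to 3.0) for Cmpk2.

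**Figure D2:**
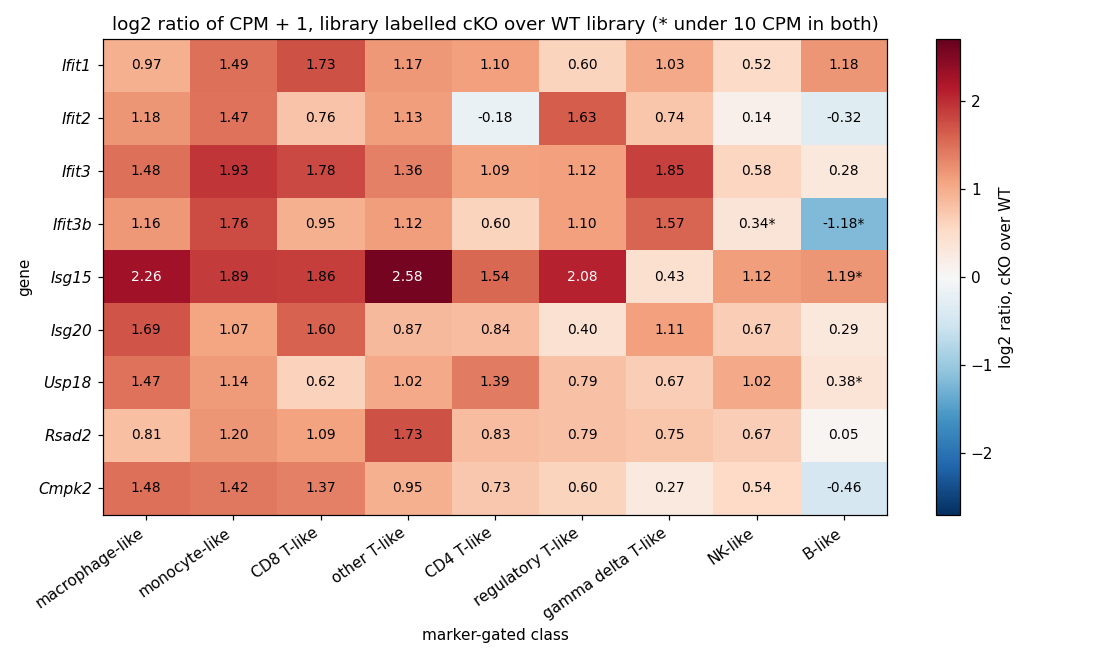
log2 ratio of CPM + 1, library labelled cKO over WT library, for each of the 9 genes (rows) in the 9 classes compared (columns), with red for higher in the library labelled cKO and an asterisk where both levels were under 10 CPM. The macrophage-like and monocyte-like columns are red throughout, from 0.81 for Rsad2 to 2.26 for Isg15, and the NK-like column is paler.

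Macrophage-like cells from the library labelled cKO carried more monocyte RNA than those of the WT library. The 6 monocyte markers summed to 2674 CPM in the library labelled cKO and 992 CPM in the WT library in that class, and the 7 macrophage markers summed to 10315 CPM and 13042 CPM. No marker of either list was at 0 in either library. Myeloid cells were therefore also binned by their macrophage score minus their monocyte score. In the most monocytic bin the 9 genes summed to 2364 CPM in the library labelled cKO, over 1248 cells, and 808 CPM in the WT library, over 926 cells, a ratio of 2.93 (2.85 to 3.01). In the most macrophage-like bin they summed to 848 CPM in the library labelled cKO, over 147 cells, and 497 CPM in the WT library, over 1934 cells, a ratio of 1.71 (1.64 to 1.78). The ratio was above 1 in all 6 bins, and the other 4 ratios lay between 2.02 and 2.50.

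**Figure D3:**
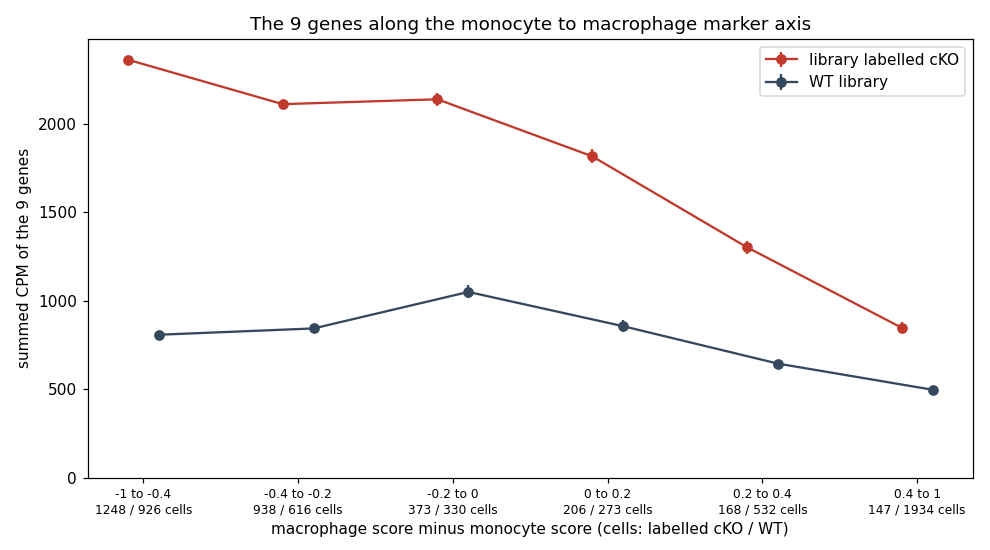
Summed CPM of the 9 genes in 6 bins of macrophage score minus monocyte score, from monocytic cells on the left to macrophage-like cells on the right, with the library labelled cKO in red above the WT library in dark blue; cell numbers stand under each bin, bars are exact 95% counting intervals. The levels in the library labelled cKO run between 848 and 2364 CPM and those in the WT library between 497 and 1050 CPM.

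CD8 T-like cells also had all 9 genes past 1.5-fold upward, against 6.8% of all genes upward and 4.11% downward. Their summed level was 513 CPM in the library labelled cKO, over 1665 cells, and 183 CPM in the WT library, over 697 cells, a ratio of 2.80 (2.6 to 3.02). Ifit1 was at 103 CPM (97.9 to 108) in the library labelled cKO and 30.4 CPM (25.3 to 36.2) in the WT library. Ifit3 was at 96.9 CPM (92.0 to 102) in the library labelled cKO and 27.5 CPM (22.6 to 33.0) in the WT library. The smallest ratios were those of Usp18, at 1.57 (1.21 to 2.04), and Ifit2, at 1.73 (1.37 to 2.21). Usp18 and Ifit2 were under 1.5-fold with a pseudocount of 10 CPM and with a stricter marker margin, as were Ifit3b with that pseudocount and Usp18 in thinned cells.

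RNA from broken cells can enter every droplet, and the part of myeloid RNA in the counts of lymphocytes was not tested. The 7 macrophage markers summed to 110 CPM in CD8 T-like cells from the library labelled cKO and 394 CPM in those of the WT library. The 6 monocyte markers went the other way, at 2903 CPM in the library labelled cKO and 1739 CPM in the WT library. Of these sums Ly6c2, a marker that CD8 T cells also express, gave 1938 CPM and 1268 CPM. The monocyte markers other than Ly6c2 were also higher in sum in the library labelled cKO. In B-like cells the 9 genes summed to 95.2 CPM (73.8 to 121) in the library labelled cKO and 79.9 CPM (61.4 to 102) in the WT library. At least 1 of them was seen in 15.9% of B-like cells in the library labelled cKO and 11.5% in the WT library after thinning to 1921 UMIs. These values do not give the part of myeloid RNA in T-like or NK-like cells.

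Among the other T cells the count of genes past 1.5-fold upward was 9 of 9 in the T-like cells that the gate put in no subset, against 7.37% of all genes. Such cells either lacked the UMIs that place a cell in a subset or held genes of several subsets, and none of the subset markers was at 0 over the class. Their 2 CD8 markers summed to 254 CPM in the library labelled cKO and 82.0 CPM in the WT library, and their 6 monocyte markers to 2390 CPM and 1818 CPM, and the part of either in the result was not tested. The count was 8 of 9 in CD4 T-like cells, against 6.6%, 8 of 9 in regulatory T-like cells, against 6.98%, and 7 of 9 in gamma delta T-like cells, against 11.3%. No member was past that fold downward in these classes. These counts rest on point ratios. In gamma delta T-like cells Usp18 was counted at a ratio of 1.61 (0.88 to 3.04), an interval that holds 1. Isg15 had a ratio of 1.36 (0.75 to 2.52) in that class and was not counted. Of the 9 genes in the 9 classes, the largest ratio was that of Isg15 in the T-like cells put in no subset, 6.33 (4.92 to 8.27), at 86.3 CPM in the library labelled cKO and 13.6 CPM in the WT library. Ifit2 in CD4 T-like cells was an exception, at 28.6 CPM (20.2 to 39.5) in the library labelled cKO and 32.5 CPM (23.2 to 44.2) in the WT library. Isg20 in regulatory T-like cells stood at 192 CPM in the library labelled cKO and 145 CPM in the WT library, a ratio of 1.32 (1.13 to 1.55). In regulatory T-like cells the macrophage markers summed to 599.9 CPM in the library labelled cKO and 598 CPM in the WT library, while the monocyte markers summed to 1585 CPM in the library labelled cKO and 1039 CPM in the WT library. The markers of type 1 conventional dendritic cells summed to 268 CPM and 176 CPM there, and the part of these cells in the result was not tested.

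NK-like cells held low levels and smaller differences. Klra8, an NK receptor gene among the 6 markers of this gate, was at 0.81 CPM in NK-like cells from the library labelled cKO and 432 CPM in those of the WT library. Klra8 also differed outside this gate. It was at 0 CPM in macrophage-like and monocyte-like cells from the library labelled cKO, and at 6.71 CPM and 1.41 CPM in those of the WT library. The cause of this difference between the libraries, and its part in the ratios of the 9 genes, was not tested. A gate without Klra8, chosen after seeing the data, gave a median log2 ratio of 0.64 over the genes. Of the 8 genes at 10 CPM or more in either library, 4 were past 1.5-fold upward, against 1.12% of all genes upward and 2.81% downward. These were Isg15, at 24.3 CPM in the library labelled cKO and 10.6 CPM in the WT library, Usp18, at 38.7 CPM and 18.6 CPM, Isg20, at 40.9 CPM and 25.3 CPM, and Rsad2, at 33.3 CPM and 20.6 CPM. Ifit2 stood at 17.6 CPM (15.1 to 20.5) in the library labelled cKO and 15.9 CPM (12.6 to 19.9) in the WT library, intervals that overlap. Isg20 was under 1.5-fold in thinned cells, and Isg20 and Rsad2 were under it with a pseudocount of 10 CPM. On the log2 scale the median of the genes was 0.62 in NK-like cells and 1.37 in CD8 T-like cells, and the difference between these classes was not tested. In B-like cells 1 of 6 genes was past the fold upward, against 8.7% of all genes, and that gene, Ifit1, rested on 9 UMIs in the library labelled cKO and 4 in the WT library.

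Neutrophil-like cells, with 48 cells in the library labelled cKO and 158 in the WT library, were too few for the comparison of classes. They held the 9 genes at 1684 CPM (1516 to 1866) in the library labelled cKO and 1692 CPM (1552 to 1840) in the WT library. After thinning, the top 10% of 44 neutrophil-like cells held 72.8% of these UMIs in the library labelled cKO. In the WT library the top 10% of 126 cells held 60.0%. The intervals do not cover this spread between cells. The summed level of neutrophil-like cells was first of the 16 classes in the WT library and second, after monocyte-like cells, in the library labelled cKO. B-like cells were last in both libraries. The small nonclassical monocyte-like class also had overlapping sums, at 488 CPM (435 to 546) in the library labelled cKO and 441 CPM (382 to 506) in the WT library. The dendritic classes were under 100 cells in 1 or both libraries, and their sums ranged from 206 CPM in plasmacytoid to 1023 CPM in cDC2-like cells from the library labelled cKO, and from 134 CPM in plasmacytoid to 441 CPM in cDC2-like cells of the WT library.

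The order of classes differed from gene to gene. Rsad2 was highest in monocyte-like cells from the library labelled cKO, at 678 CPM, where its interval overlapped that of neutrophil-like cells (538 to 755), and in neutrophil-like cells of the WT library, at 705 CPM (616 to 804). Isg20 was highest in regulatory T-like cells from the library labelled cKO, at 192 CPM (175 to 211), and in neutrophil-like cells of the WT library, at 253 CPM (201 to 314). Ifit1 was highest in neutrophil-like cells of both libraries, at 382 CPM (304 to 473) in the library labelled cKO and 194 CPM (148 to 248) in the WT library. Usp18 was highest in monocyte-like cells from the library labelled cKO, overlapping cDC2-like cells, and in mature DC-like cells of the WT library, overlapping the next class. Isg15 and Usp18 were lowest in B-like cells of both libraries.

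The detection of several of the genes in 1 cell was compared after thinning every cell of a class to 1 depth. At 5396 UMIs per cell, 64.5% (62.4 to 66.6) of 2105 monocyte-like cells from the library labelled cKO held 3 or more of the 9 genes, against 31.6% (29.1 to 34.2) of 1325 WT cells. Unthinned, the shares were 78.2% and 38.4%. Cells with none of the genes made up 9.03% of monocyte-like cells in the library labelled cKO and 25.4% in the WT library, while cells with 7 or more made up 18.9% (17.2 to 20.6) and 4.53% (3.47 to 5.79). The difference was thus present at both ends of the distribution.

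In macrophage-like cells at 4629 UMIs, 51.2% (45.6 to 56.8) of 320 cells in the library labelled cKO held 3 or more, against 19.4% (17.8 to 21.2) of 2132 cells in the WT library. Without thinning these shares were 68.2% in the library labelled cKO and 47.2% in the WT library. In CD8 T-like cells at 3443 UMIs the shares were 16.4% (14.6 to 18.3) of 1599 cells in the library labelled cKO and 4.13% (2.64 to 6.13) of 557 cells in the WT library. NK-like cells at 2499 UMIs had 3.33% (2.50 to 4.34) of 1562 cells in the library labelled cKO and 1.69% (0.99 to 2.69) of 1005 cells in the WT library, and these intervals overlap. In B-like cells the shares were 1.06% of cells in the library labelled cKO and 0.385% in the WT library, from 2 cells and 1 cell. Thinning left out 170 monocyte-like cells from the library labelled cKO and 330 of the WT library, and 80 and 423 macrophage-like cells.

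**Figure D4:**
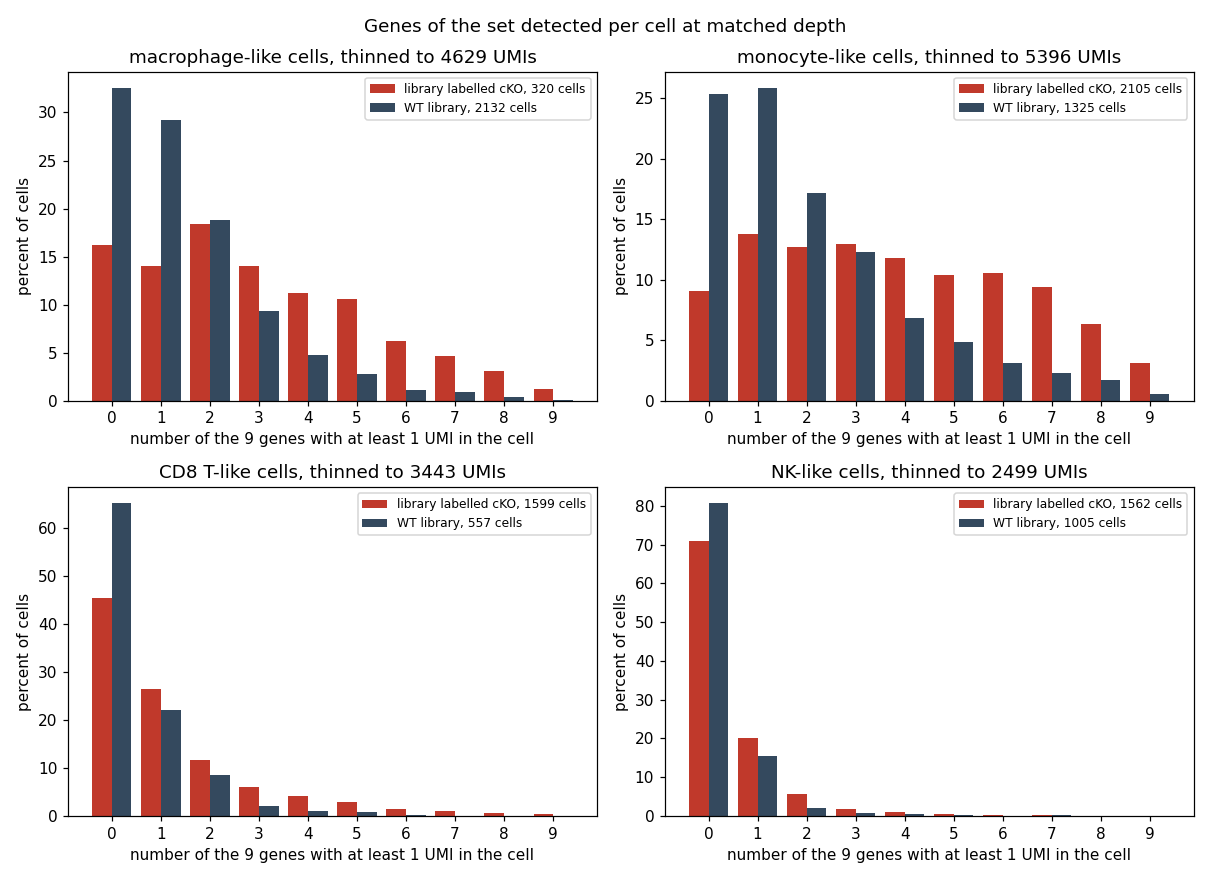
Percent of cells (vertical axis) that held 0 to 9 of the genes (horizontal axis) after thinning to 1 depth per class, in macrophage-like, monocyte-like, CD8 T-like and NK-like cells, with the library labelled cKO in red on the left of each pair and the WT library in dark blue on the right. In monocyte-like cells the bars of the library labelled cKO spread over the whole range and 9.03% stand at 0, whereas 25.4% of WT cells stand at 0.

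In monocyte-like cells from the library labelled cKO, Isg15, Rsad2 and Ifit3 had both more cells with a UMI and more UMIs per such cell. In thinned monocyte-like cells Isg15 was detected in 65.7% of cells in the library labelled cKO and 33.7% in the WT library, with 2.95 and 1.57 UMIs per positive cell. Rsad2 was detected in 60.8% of cells in the library labelled cKO and 39.0% in the WT library, with 5.81 and 4.07 UMIs per positive cell. Ifit3 was detected in 43.5% of cells in the library labelled cKO and 17.6% in the WT library, with 3.32 and 2.19 UMIs per positive cell. UMIs per positive cell were not higher throughout. Ifit1 was detected in 23.3% of regulatory T-like cells from the library labelled cKO and 11.1% of those from the WT library, with 1.61 and 2.15 UMIs per positive cell, and Usp18 in 8.26% of NK-like cells in the library labelled cKO and 3.98% in the WT library, with 1.12 and 1.27 UMIs per positive cell. In B-like cells, the class with the lowest sum, detection of a single gene ranged from 0% to 4.23% in the library labelled cKO and from 0.385% to 2.31% in the WT library.

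Pairs of the genes were found together in single cells more often than their separate shares give. For each pair, the cells with both genes were divided by the number that 2 independent shares would give, within 1 class and library at matched depth. All 36 pairs were above 1 in macrophage-like and monocyte-like cells of both libraries. The median in monocyte-like cells was 1.38 in the library labelled cKO and 1.76 in the WT library, and in macrophage-like cells 1.5 in the library labelled cKO and 1.74 in the WT library. In CD8 T-like cells from the library labelled cKO all 36 pairs were above 1, with a median of 2.63, while no pair in those of the WT library reached the 5 expected cells needed. Among 9 housekeeping genes treated the same way the medians in these classes lay between 1.00 and 1.02. The share of cells with 3 or more of the genes was not above what 9 independent shares give in every class. In monocyte-like cells it was 64.5% against 83.1% given by independent shares in the library labelled cKO, and 31.6% against 32.5% in the WT library. In macrophage-like cells it was 51.2% against 62.6% in the library labelled cKO and 19.4% against 15.6% in the WT library, and in CD8 T-like cells 16.4% against 10.9% in the library labelled cKO and 4.13% against 1.38% in the WT library. Where the share at 3 or more was below the independent one, all 36 pairs were still above 1. A lower share at this 1 cut is therefore not by itself a sign of less joint detection. A pair ratio falls as the shares rise, so it cannot be compared between libraries with unlike shares.

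**Figure D5:**
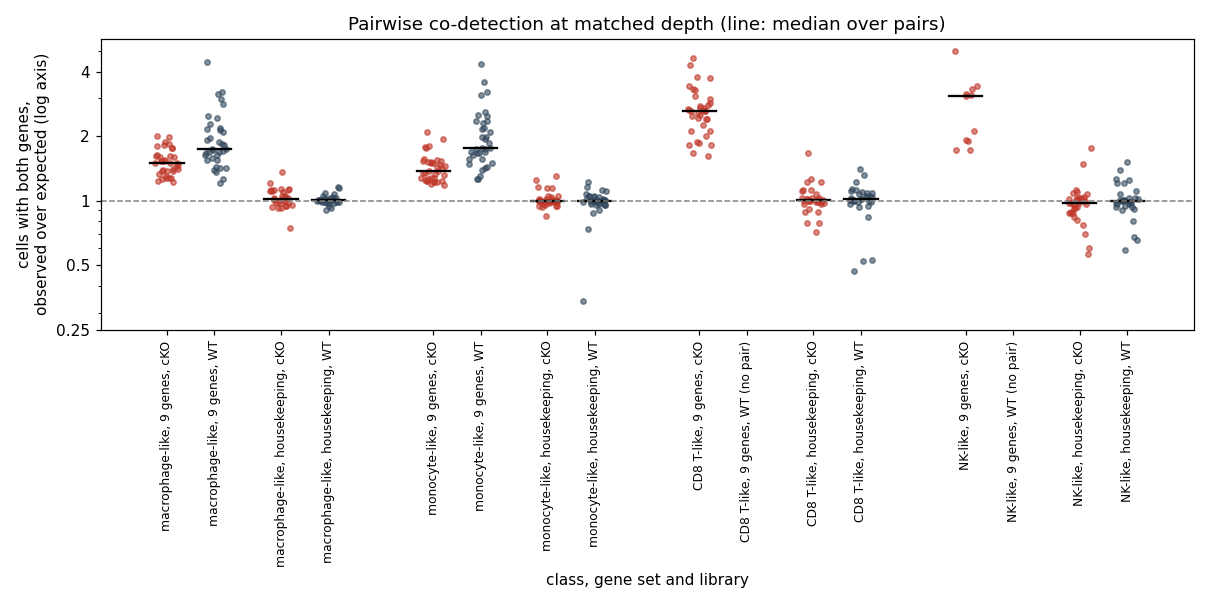
Cells with both genes of a pair, observed over expected (log axis), for pairs among the 9 genes and among 9 housekeeping genes in 4 classes, with the library labelled cKO in red on the left and the WT library in dark blue on the right. Each point is a pair with at least 5 expected cells, and lines are medians. Pairs among the 9 genes lie above the dashed line at 1, and housekeeping pairs lie around it.

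Ifit3b was in the pair with the highest ratio in macrophage-like and monocyte-like cells of both libraries. The same held in CD8 T-like cells from the library labelled cKO. How reads were split between Ifit3b and Ifit3 is uncertain. In monocyte-like cells of the WT library Ifit3 and Ifit3b were together in 39 cells where 8.97 were expected, a ratio of 4.35. The weakest pair in monocyte-like cells from the library labelled cKO was Rsad2 with Isg15, together in 995 cells where 840 were expected, a ratio of 1.18. Over the 9 classes and 2 libraries, which share depth and free RNA within a library, Pearson's r between members on log2(CPM + 1) ranged from 0.56 for Rsad2 with Isg20 to 0.95 for Rsad2 with Ifit2, over 18 sums.

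Of the genes that carry the interferon signal, Stat2 was at 85.3 CPM in macrophage-like cells from the library labelled cKO and 39.4 CPM in those of the WT library, and at 102 CPM and 74.9 CPM in monocyte-like cells. The receptor chain Ifnar2 was at 104 CPM in the library labelled cKO and 73.8 CPM in the WT library in macrophage-like cells, and at 102 CPM and 84.7 CPM in monocyte-like cells. Ifnar1 had a ratio of 1.24 in macrophage-like cells and 1.07 in monocyte-like cells. The ratios in the same 2 classes were 1.03 and 1.05 for Jak1, and 1.40 and 0.93 for Tyk2. Of the genes given here, only Stat2 in macrophage-like cells was past 1.5-fold.

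The list of nucleic acid sensing, which holds sensors, adaptors, a kinase and transcription factors that act in interferon production, was past the fold in part. In macrophage-like cells 5 of 12 of its genes were past 1.5-fold upward, against 7.38% of all genes, and none downward. In monocyte-like cells 5 of 10 were past it upward, against 3.89%. Zbp1, a sensor of Z-form nucleic acid, was at 236 CPM in macrophage-like cells from the library labelled cKO and 81.6 CPM in those of the WT library. Irf7, the factor that amplifies interferon genes, was at 450 CPM in the library labelled cKO and 167 CPM in the WT library in the same class. In CD8 T-like cells 5 of 9 genes of this list were past the fold upward, against 6.8% of all genes. Zbp1 was at 167 CPM in CD8 T-like cells from the library labelled cKO and 80.2 CPM in those of the WT library.

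The type I interferon genes themselves were sparse. Ifnb1 was the main one counted, at 28.2 CPM (27.1 to 29.2) over all kept cells of the library labelled cKO and 27.8 CPM (26.8 to 28.8) over those of the WT library. In monocyte-like cells Ifnb1 was at 55.8 CPM (53.2 to 58.5) in the library labelled cKO and 51.4 CPM (47.6 to 55.5) in the WT library, a ratio of 1.08 (0.99 to 1.19). In macrophage-like cells it was at 31.9 CPM (28.2 to 35.8) in the library labelled cKO and 36.3 CPM (34.6 to 38.1) in the WT library, a ratio of 0.88 (0.77 to 0.997). Neither class had Ifnb1 past 1.5-fold in either direction, and its part in the levels of the 9 genes was not tested.

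The alpha and other type I genes gave few UMIs. Ifna2 had 89 UMIs over all kept cells of the library labelled cKO and 38 over those of the WT library, and Ifna16 had 10 and 4. Ifna1, Ifna4, Ifna5, Ifna13, Ifnab and Ifnk had from 0 to 7 UMIs in a library. Ifng, the type II interferon made by T and NK cells, was at 151 CPM (148 to 153) over all kept cells of the library labelled cKO and 40.3 CPM (39.0 to 41.5) over those of the WT library. In CD8 T-like cells Ifng was at 585 CPM (573 to 598) in the library labelled cKO and 211 CPM (197 to 225) in the WT library, and in NK-like cells at 216 CPM (207 to 225) and 220 CPM (207 to 233). The ratio of Ifng was thus 2.78 (2.59 to 2.98) in CD8 T-like cells and 0.98 (0.91 to 1.06) in NK-like cells. The share of cells from each class also differed between libraries, with 1665 CD8 T-like cells in the library labelled cKO and 697 in the WT library, and its part in the sums over all cells was not tested.

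Many other interferon genes were higher along with the 9, though not in B-like cells. Of 32 further type I interferon genes, 27 were past 1.5-fold upward in macrophage-like cells, against 7.38% of all genes. In monocyte-like cells 18 were past it, against 3.89%, in CD8 T-like cells 15 of 27, against 6.8%, and in NK-like cells 11 of 29, against 1.12%. None was past it downward in these classes. In B-like cells 2 of 26 were past the fold upward, against 8.7% of all genes, and 4 downward, with a median log2 ratio of -0.15. Mx1, an antiviral GTPase, was at 161 CPM in monocyte-like cells from the library labelled cKO and 63.9 CPM in those of the WT library. Pml, which builds nuclear bodies, was at 68.2 CPM in the library labelled cKO and 30.0 CPM in the WT library in the same class. The median log2 ratio of this list was 0.94 in macrophage-like cells and 0.61 in monocyte-like cells.

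Genes that respond mainly to interferon gamma were also higher in macrophage-like and monocyte-like cells. Of 12 such genes at 10 CPM or more, 12 were past 1.5-fold upward in macrophage-like cells and 11 in monocyte-like cells, with a median log2 ratio of 1.51 and 1.12. The shares over all genes were 7.38% and 3.89%. Cxcl9, a chemokine that draws T cells, was at 720 CPM in macrophage-like cells from the library labelled cKO and 167 CPM in those of the WT library. Gbp2, a guanylate-binding protein, was at 297 CPM in the library labelled cKO and 72.0 CPM in the WT library in that class. In CD8 T-like cells 6 of 11 were past the fold upward, against 6.8% of all genes, with a median of 0.59. The 9 genes had a median of 1.37 there. The lists share inducers, since many of these genes respond to both kinds of interferon.

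A search over all genes gave those whose level followed the mean of the 9 most closely. Among 5046 genes of at least 50 CPM in 1 of the 18 sums, the 8 with the highest Pearson's r to the mean log2(CPM + 1) of the 9 were Rtp4, Gbp2, Phf11a, Irf7, Oas3, Ifih1, Ifi35 and Emp1, with r from 0.97 for Rtp4 to 0.94 for Emp1. Rtp4 was at 268 CPM in monocyte-like cells from the library labelled cKO and 149 CPM in those of the WT library. Emp1, an epithelial membrane protein, was at 437 CPM in the library labelled cKO and 165 CPM in the WT library in that class. The r values describe 18 sums that share libraries and are given without a test.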

How the data were processed

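The deposited values are UMI counts per gene and cell barcode, which the authors made with Cell Ranger. Per the submitters' processing notes the tools were Seurat 4.0.4 and Cell Ranger 5.0.1, with build mm10, whereas the file headers give cellranger 5.0.0. The sources used here do not give the annotation release, the counting options or the handling of multi-mapped reads. From these counts, barcodes with under 200 genes or over 10% mitochondrial UMIs were left out, and the highest Scrublet scores (scanpy 1.11.5) were removed at 0.8% per 1000 cells, 779 in the library labelled cKO and 1187 in the WT library. A cell was placed in a class by marker genes when its best lineage score was at least 0.3 and led the next by 0.1; T cells were split by Cd8a, Cd8b1, Cd4, Cd40lg, Foxp3 and gamma delta genes. Counts were summed per class and library and divided by the class's UMIs. A gene was called past 1.5-fold on CPM + 1 among genes of at least 10 CPM in either library. Intervals are exact Poisson, binomial and conditional, at 95%, and cover counting error only: UMIs of 1 library do not show how animals differ. Intervals of summed UMIs treat the UMIs as independent, so they do not cover the spread between cells of a class. For co-detection, UMIs were drawn without replacement down to 1 depth per class, the lower of the 20th percentiles in the 2 libraries. The summing, intervals and thinning were tested on simulated data. Analyses used Python 3.11.15, numpy 2.4.6 and scipy 1.17.1. Alternatives are given in the closing section.

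The 9 genes and the gene lists were chosen with earlier results of these data known. Named beyond the 9 are, per list and class, up to 4 genes of at least 10 CPM with the largest ratio, every ligand with a UMI, the 8 closest genes and Ythdf2. Ifnar1, Jak1 and Tyk2 were added outside this rule. Of the list of genes that carry the interferon signal, 1 member and the counts that include it are not reported here.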

Additional observations from a re-analysis of the deposited data

Results flagged for a closer look

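Cells that entered no class, and so no comparison of classes, also differed. The 9 genes summed to 1419 CPM (1400 to 1438) in 1181 such cells of the library labelled cKO and 591 CPM (577 to 606) in 1529 of the WT library, a ratio of 2.40 (2.34 to 2.47). Barcodes left out for over 10% mitochondrial UMIs had 761 CPM (735 to 787) in the library labelled cKO and 328 CPM (314 to 342) in the WT library, a ratio of 2.32 (2.19 to 2.45), at median depths of 1834 and 1865 UMIs. Both are signals in data that no comparison of classes used. Some of the cells without a class were in the bins of macrophage minus monocyte score, and all were in the sums over all kept cells.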

How the results depend on the processing

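No paired analysis was possible because each label has 1 library and no test was made. Over 369 values of single genes under alternatives in macrophage-like, monocyte-like, CD8 T-like and NK-like cells, 368 were positive. The exception was Ifit3b in NK-like cells thinned to 1 depth, at -0.10 on the log2 scale. None changed by over 1.5 times, 9 calls were lost and 15 gained, all gains in NK-like cells. The median log2 ratio in macrophage-like cells moved to 1.14 with a pseudocount of 10 CPM and 1.29 with a stricter marker margin. In monocyte-like cells it moved to 1.58 with median-of-ratios size factors, 1.25 with a pseudocount of 10 CPM and 1.38 with a looser margin, and in CD8 T-like cells to 0.90 with that pseudocount. Of the 9 genes, 9 stayed past 1.5-fold in macrophage-like and monocyte-like cells under every alternative run. In NK-like cells the 4 past 1.5-fold became 7 with size factors or with doublets kept, and 2 with a pseudocount of 10 CPM. The log2 ratio of the share of macrophage-like cells with 3 or more genes was 1.40, and moved to 0.87 for 2 or more genes, 0.53 without thinning, 1.81 at 2000 UMIs, 1.15 with 500 genes per cell and 1.19 with 5% mitochondrial UMIs. In monocyte-like cells it was 1.03, and moved to 0.66 for 2 or more genes and 1.56 at 2000 UMIs; in CD8 T-like cells it was 1.99, and moved to 1.16 for 2 or more genes; in NK-like cells it was 0.98, and moved to 1.94 without thinning. The cause of these shifts was not tested. An NK gate without Klra8, chosen after seeing the data, gave a median of 0.64. With 1 library per label, the depth limits only the counting error, and the spread between animals is unknown.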
